A study of Rattus norvegicus with 2 samples.

Results

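Genes of catecholamine metabolism and response were followed by symbol through single-cell libraries of cultured cells from neonatal rat heart. The 6 genes are *Ddc*, *Maoa*, *Maob*, *Slc22a3*, *Adrb1* and *Adra1b*, out of 25399 genes listed, and each symbol had 1 row in the gene table. The cells came from hearts of Sprague-Dawley rats 1 to 3 days old, male and female animals pooled, and were enriched on a Percoll gradient for intrinsic cardiac adrenergic (ICA) cells, small cells of the heart reported to make catecholamines. Cells of 1 group were given lipopolysaccharide (LPS, a bacterial cell wall product that activates innate immune signaling) at 1 µg/mL for 2 h, those of the other saline (control), and each group gave 1 library made with a 3′ kit for single cells. The cells had been plated and cultured before LPS or saline was added, and were detached with trypsin afterwards. Whether both groups came from the same pool of hearts is not given in the sources used here. The comparison asks where these genes were transcribed among the cells of the preparation and whether their levels differed after LPS.

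Catecholamines are made from tyrosine by tyrosine hydroxylase (*Th*), aromatic amino acid decarboxylase (*Ddc*), dopamine beta-hydroxylase (*Dbh*) and, for adrenaline, *Pnmt*. They leave the extracellular space through the noradrenaline transporter (*Slc6a2*) or the low-affinity organic cation transporter OCT3 (*Slc22a3*), and are broken down in part by monoamine oxidases A and B (*Maoa*, *Maob*), enzymes of the outer mitochondrial membrane. On heart cells they act through adrenergic receptors, among them beta-1 (*Adrb1*), the main receptor for the rise in rate and force, and alpha-1B (*Adra1b*), which is coupled to phospholipase C.

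The authors' 11 clusters were used as classes. They named clusters 0, 1 and 7 fibroblasts, 3 "ICA and Cardiomyocyte", 4 and 5 endothelial, 6 macrophages, and left 2, 8, 9 and 10 without a name. The control library held 11529 clustered cells at a median of 12479 unique molecular identifiers (UMIs, single captured RNA molecules) per cell over all its cells, and the LPS library 12681 cells at 9432. The libraries shared 194 cell barcodes. A level below is the UMIs of a gene summed over a class, per 1000000 UMIs of that class (CPM). With 1 library per condition nothing was tested. Intervals in parentheses are at 95% and hold counting error alone. A difference between conditions cannot be told apart from one between the libraries. Cluster 3 held 836 control and 929 LPS cells. Its 9 measured cardiomyocyte markers summed to 12422 CPM in control and 12924 CPM in LPS, against 230 and 191 CPM in cluster 0. Of the 8 sympathetic or chromaffin markers, *Th*, *Phox2a*, *Chga*, *Chgb* and *Slc18a1* had 0 UMIs in cluster 3 in both libraries. *Slc18a2* had 0 there in control and 1 in LPS. *Dbh* supplied 180 of the list's 187 control UMIs and 136 of its 146 LPS UMIs. The fibroblast markers reached 3913 and 3498 CPM in cluster 3, 32.6% and 32.0% of their sums in cluster 0.

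*Ddc* (ENSRNOG00000004327), the enzyme that turns L-DOPA into dopamine, was the member most concentrated in 1 cluster among those with at least 50 UMIs in each library. Of 514 *Ddc* UMIs in the control library 351 lay in cluster 3, and of 397 in the LPS library 312, or 68.3% and 78.6% of them, while cluster 3 held 7.25% and 7.33% of the cells. Its level there was 49.6 CPM (44.5 to 55.1) in control and 56.9 CPM (50.8 to 63.6) in LPS. In the other cells together it was 1.12 CPM (0.955 to 1.31) and 0.696 CPM (0.556 to 0.861). Cluster 3 thus stood 44.3-fold (36.7 to 53.6) above the other cells in control and 81.8-fold (64.1 to 105) in LPS. These folds describe the cluster with the highest level and are not a test of it. Below cluster 3, no neighbors in the order of *Ddc* levels differed beyond counting error in either library.

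RefSeq lists 3 starts for *Ddc* in rat, all on the minus strand of chromosome 14. A 3′ library counts the end of the transcript, so the UMIs above cannot be assigned to one start, and the windows from 250 bases before to 50 after each start are shown for that reason, 5′ to 3′ in the direction of the gene, in build GRCr8 (the build behind the counts is not given in the sources used here). Each window of this kind was searched on both strands for a GC box (GGGCGG), the TATA box (TATAAA), the AP-1 motif (TGANTCA), the core of a kappa B motif (GGANNTTCC) and the cAMP response element (TGACGTCA), and matches are in capitals.
*Ddc* start 1, chr14:90682734-90683033: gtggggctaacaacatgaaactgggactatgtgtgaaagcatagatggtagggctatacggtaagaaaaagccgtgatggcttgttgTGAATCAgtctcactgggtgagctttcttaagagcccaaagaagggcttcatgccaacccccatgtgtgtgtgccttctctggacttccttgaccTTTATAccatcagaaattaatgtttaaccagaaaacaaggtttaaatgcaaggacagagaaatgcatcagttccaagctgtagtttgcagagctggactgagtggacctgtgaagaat
*Ddc* start 2, chr14:90675577-90675876: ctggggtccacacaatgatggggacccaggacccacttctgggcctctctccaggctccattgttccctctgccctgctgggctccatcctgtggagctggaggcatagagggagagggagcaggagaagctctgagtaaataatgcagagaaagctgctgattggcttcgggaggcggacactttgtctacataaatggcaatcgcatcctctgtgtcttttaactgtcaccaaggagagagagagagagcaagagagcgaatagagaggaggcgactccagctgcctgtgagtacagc
*Ddc* start 3, chr14:90665771-90666070: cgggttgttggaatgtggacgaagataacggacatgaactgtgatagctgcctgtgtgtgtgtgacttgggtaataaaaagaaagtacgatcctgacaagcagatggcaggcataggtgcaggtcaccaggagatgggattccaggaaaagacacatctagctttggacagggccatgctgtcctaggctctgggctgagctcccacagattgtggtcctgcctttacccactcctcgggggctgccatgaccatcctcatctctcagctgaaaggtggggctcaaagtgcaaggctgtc
Window 1 holds 1 TATA box match (on the opposite strand, as TTTATA) and 1 AP-1 match (TGAATCA). Windows 2 and 3 hold no match to any of the 5 motifs. Of all 33469 windows of the table, 14.2% hold a TATA box match and 7.33% an AP-1 match. A match is a string of letters and does not show a bound site.

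Between conditions, *Ddc* in cluster 3 had an LPS to control ratio of 1.15 (0.982 to 1.34), an interval that includes 1. Among all 8465 genes with at least 50 UMIs in cluster 3, 79.5% had a ratio at or below that of *Ddc*. Cluster 3 cells had median mitochondrial shares of 17.9% of UMIs in control and 17.3% in LPS. With only cells of at least 500 genes and at most 20% mitochondrial UMIs, the log2 ratio of *Ddc* went from 0.199 to 0.329. It then rested on 237 control and 240 LPS UMIs in place of 351 and 312, and its interval is not given. After each cell was thinned to 3000 UMIs, 14.2% (11.9 to 16.8) of control cells and 15.1% (12.9 to 17.6) of LPS cells of cluster 3 held a *Ddc* UMI. The unthinned shares were 30.9% and 25.8%, in cells with medians of 7526 and 5269 UMIs. In the fibroblasts of cluster 0, taken as cells that should lack it, the thinned shares were 0.258% (0.150 to 0.412) and 0.171% (0.0883 to 0.298), in cells with medians of 12968 and 9822 UMIs. No cell held more than 4 *Ddc* UMIs.

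In clusters 0, 1, 2, 4, 5 and 6 of both libraries, the *Ddc* level ran from 0.418% to 3.24% of that in cluster 3. The summed cardiomyocyte markers ran from 1.47% to 2.63% of theirs. Cluster 9, not among these, had *Ddc* at 6.67 CPM in control (3 UMIs) and 3.58 CPM in LPS (1 UMI). Its cardiomyocyte markers were at 17.7% of their cluster 3 sum in both libraries. In cluster 0 *Ddc* stood at 2.16% of its cluster 3 level in control and 1.38% in LPS, and the summed cardiomyocyte markers at 1.85% and 1.47% of theirs. In endothelial cluster 4 *Ddc* stood at 2.90% and 1.08%, and the markers at 2.23% and 1.64%. In macrophages it stood at 3.24% and 0.707%, from 5 control UMIs and 1 LPS UMI, beside 2.04% and 1.80% for the markers. Over all cells but cluster 3, *Ddc* in LPS was at 0.622 times (0.473 to 0.813) its control level, from 163 and 85 UMIs. The marker sum in cluster 0 was also lower in LPS, 191 against 230 CPM. What free RNA in the droplets contributed was not tested.

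**Figure D1:**
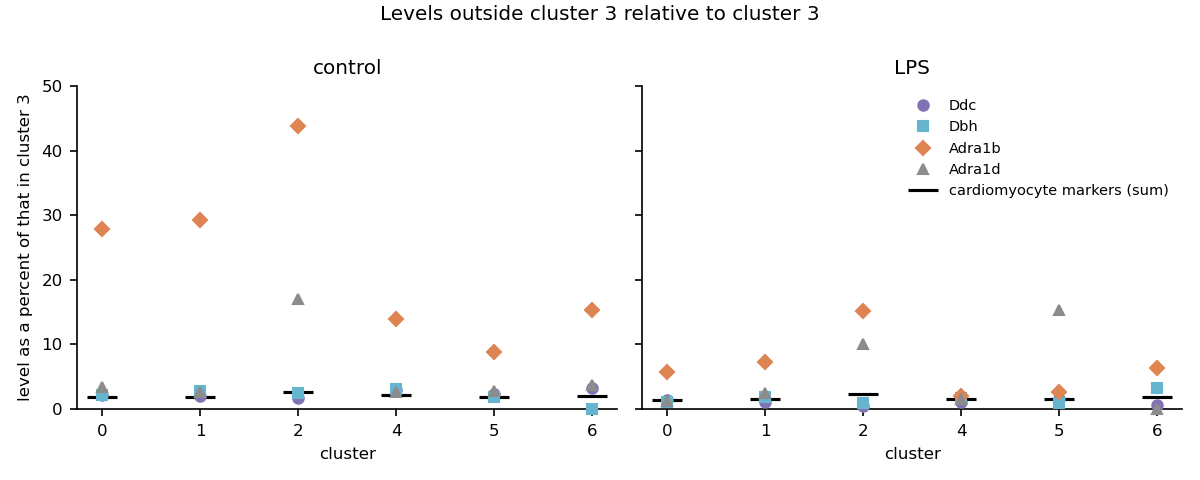
Level of *Ddc*, *Dbh*, *Adra1b* and *Adra1d* in clusters 0, 1, 2, 4, 5 and 6 as a percent of the level of the same gene in cluster 3 (vertical axis), control library on the left and LPS library on the right, with the sum of the cardiomyocyte markers as a black bar. Over both libraries *Ddc* lies between 0.418% and 3.24% and *Dbh* between 0% and 3.24%, where the bars lie between 1.47% and 2.63%. The lowest *Ddc* point rests on 2 UMIs, and the *Dbh* points of macrophages on 0 and 2. *Adra1d* lies between 2.65% and 17.0% in control and between 0% and 15.3% in LPS. *Adra1b* lies between 8.77% and 43.8% in control and between 2.04% and 15.1% in LPS.

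The genes whose levels over clusters were most like those of *Ddc* were muscle genes. Among 9764 genes with at least 200 UMIs in each library, the 5 with the highest lower value of the control and LPS correlations over 10 clusters, on log2(CPM + 1), were *Unc45b* (a myosin chaperone, 0.985), *Nppa* (atrial natriuretic peptide, 0.979), *Tnnc1* (cardiac troponin C, 0.975), *Lrrc10* (a cardiac leucine-rich repeat protein, 0.972) and *Pln* (phospholamban, 0.972). The points share libraries and depth and 1 cluster stands far above the rest, so these values only describe. *Unc45b*, for instance, had 105 CPM in cluster 3 and 1.51 CPM in cluster 0 of the control library, and 115 and 1.04 CPM in LPS.

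Within cluster 3, cells with and without a *Ddc* UMI were compared for muscle genes, *Dbh* and a collagen. After thinning, the 119 control cells with *Ddc* had 1123 CPM (1016 to 1239) of *Tnni3*, cardiac troponin I, and the 717 without it 1061 CPM (1018 to 1105). The 140 LPS cells with *Ddc* had 988 CPM (895 to 1088) and the 786 without it 1107 CPM (1065 to 1150), so the intervals overlap in each library. Overlap alone does not show equal levels, and no interval of the ratio was taken for these genes. *Tnnt2*, cardiac troponin T, was at 4471 CPM (4254 to 4695) with *Ddc* and 4225 CPM (4138 to 4312) without in control. In LPS it was higher in cells with *Ddc*, 4979 CPM (4767 to 5197) against 4469 CPM (4384 to 4555), intervals that do not overlap. *Myh6*, a cardiac myosin heavy chain, had overlapping intervals in both libraries. *Dbh*, the next enzyme of the pathway, was at 22.4 CPM (9.67 to 44.2) with *Ddc* and 26.5 CPM (20.1 to 34.3) without in control, and at 28.6 CPM (14.8 to 49.9) and 29.7 CPM (23.1 to 37.5) in LPS. Read the other way, 11.9% (4.91 to 22.9) of thinned control cells with a *Dbh* UMI also had *Ddc*, against 14.4% (12.0 to 17.1) of those without. In LPS the shares were 15.4% (8.21 to 25.3) and 15.1% (12.8 to 17.7). At this depth no tendency of both transcripts to occur in the same cells was detectable. The fibroblast collagen *Col1a1* was lower in cells with *Ddc*, 1146 CPM (1037 to 1262) against 1348 CPM (1299 to 1398) in control and 800.0 CPM (717 to 890.3) against 1061 CPM (1020 to 1104) in LPS. The CPM intervals here come from UMIs pooled over the cells of a group and hold no spread between cells. Whether cells with and without *Ddc* differ was not tested.

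*Maoa* (ENSRNOG00000002848), monoamine oxidase A, which prefers noradrenaline and serotonin as substrates, was read in all 11 clusters of both libraries. It had 1838 UMIs in the control library and 1242 in the LPS library. In control the levels ran from 6.67 CPM in cluster 9 (3 UMIs) to 18.3 CPM (13.9 to 23.7) in macrophages, and no neighbors in that order differed beyond counting error. Cluster 3, at 16.5 CPM (13.7 to 19.8), stood 1.40-fold (1.15 to 1.69) above the other cells in control and, at 15.1 CPM (12.1 to 18.8), 1.60-fold (1.26 to 1.99) in LPS. Fibroblast clusters 0, 1 and 7 held 70.6% and 71.7% of its UMIs. They also held 7999 of the 11529 control cells and 8609 of the 12681 LPS cells. The *Maoa* level in these clusters together was 11.2 CPM in control and 9.34 CPM in LPS, against 12.0 CPM and 9.74 CPM over all cells. No cluster lacked *Maoa*, so no background share could be taken for it.

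After LPS the *Maoa* level was lower in most clusters. Over all cells it was 12.0 CPM (11.5 to 12.6) in control and 9.74 CPM (9.20 to 10.3) in LPS, a ratio of 0.808 (0.752 to 0.869). Of the 8 clusters with at least 20 *Maoa* UMIs, 7 had a ratio below 1, and the interval excluded 1 in 3 of them. In endothelial cluster 4 it went from 16.6 CPM (14.3 to 19.2) to 10.3 CPM (8.36 to 12.5), a ratio of 0.618 (0.479 to 0.792). This was the lowest *Maoa* ratio. Cluster 2 had 14.1 CPM (11.8 to 16.7) and 9.41 CPM (7.45 to 11.7), a ratio of 0.667 (0.498 to 0.889). In cluster 0 the levels were 11.8 CPM (11.1 to 12.5) and 9.88 CPM (9.18 to 10.6), a ratio of 0.838 (0.762 to 0.922). The median ratio over all genes with at least 50 UMIs was itself below 1 in every cluster but cluster 10, among them 0.914 in cluster 0, 0.921 in cluster 2, 0.941 in cluster 4 and 0.808 in cluster 6. Relative to that median *Maoa* in cluster 0 was at 0.917 (0.834 to 1.01), which includes 1. Relative to the medians of their clusters the ratios in clusters 2 and 4 stayed below 1, at 0.724 (0.541 to 0.965) and 0.656 (0.509 to 0.842).

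In the other 5 clusters the interval included 1. Cluster 1 had 211 control and 147 LPS UMIs and a ratio of 0.831 (0.668 to 1.03). *Maoa* in cluster 3 had 117 control and 83 LPS UMIs and a ratio of 0.916 (0.683 to 1.22). In cluster 5 it had 33 and 50 UMIs, 7.77 CPM (5.35 to 10.9) and 11 CPM (8.15 to 14.5), and a ratio of 1.41 (0.894 to 2.27), so the ratios of both endothelial clusters lay on opposite sides of 1, that of cluster 5 within counting error. Macrophages went from 57 to 30 UMIs, a ratio of 0.659 (0.409 to 1.04). Cluster 7 had 19 and 15 UMIs and a ratio of 0.758 (0.359 to 1.57). The 5 genes most like *Maoa* over clusters reached correlations of only 0.80 to 0.74: *Smad2*, a transducer of TGF-beta signals, *Manba*, lysosomal beta-mannosidase, LOC100360846, *Dpysl2* and *Cpped1*.

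*Maob* (ENSRNOG00000029778), monoamine oxidase B, had 50 UMIs spread over 49 cells of the control library and 21 over as many LPS cells. In control 20 of its UMIs lay in cluster 0, 9 in cluster 4, 7 each in clusters 3 and 5, 6 in cluster 1 and 1 in cluster 2, and the other clusters had 0. In LPS the counts were 7, 8, 1, 2, 2 and 1 in the same order of clusters 0, 4, 3, 5, 1 and 2. As levels, the highest in control were those of endothelial cluster 5, 1.65 CPM (0.662 to 3.39), and cluster 3, 0.989 CPM (0.398 to 2.04), and the endothelial cluster 4 led in LPS with 0.822 CPM (0.355 to 1.62). Over all cells its LPS level was 0.503 times (0.287 to 0.852) that of control, and in cluster 0, the only class with at least 20 UMIs, 0.429 (0.153 to 1.06).

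*Maoa* and *Maob* are neighbors on the X chromosome, with no other gene of the RefSeq table between them and their ends facing each other. Their start windows are shown because both enzymes had lower levels over all cells in LPS.
*Maoa*, minus strand, chrX:8681323-8681622: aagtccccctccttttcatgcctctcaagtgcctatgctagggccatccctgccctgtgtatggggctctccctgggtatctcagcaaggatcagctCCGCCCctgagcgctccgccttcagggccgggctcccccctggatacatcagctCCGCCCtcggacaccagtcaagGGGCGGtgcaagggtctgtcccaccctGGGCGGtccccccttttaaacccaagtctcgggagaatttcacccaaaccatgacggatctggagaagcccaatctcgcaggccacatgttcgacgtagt
*Maob*, plus strand, chrX:8490155-8490454: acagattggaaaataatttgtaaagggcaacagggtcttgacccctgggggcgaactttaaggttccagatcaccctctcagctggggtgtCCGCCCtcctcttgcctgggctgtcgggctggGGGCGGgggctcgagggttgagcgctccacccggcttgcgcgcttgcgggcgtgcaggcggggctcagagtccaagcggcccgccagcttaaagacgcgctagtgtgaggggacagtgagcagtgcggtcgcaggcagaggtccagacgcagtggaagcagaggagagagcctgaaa
The *Maoa* window holds 4 GC box matches and the *Maob* window 2, and neither holds a match to the other 4 motifs. A GC box match is found in 33.1% of all windows. Their GC contents of 61.0% and 63.0% were at or above those of 76.8% and 80.8% of the windows.

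*Slc22a3* (ENSRNOG00000022946), the extraneuronal catecholamine transporter, was close to absent from the counts. Over all cells it had 3 UMIs in control and 1 in LPS, none of them in cluster 3, where its level could still be as high as 0.424 CPM (control) or 0.547 CPM (LPS), the limits that 0 UMIs leave. *Adrb1* (ENSRNOG00000017002), the beta-1 receptor, had 15 UMIs in control and 6 in LPS, each in a different cell. Of these, 2 control UMIs and 0 LPS UMIs were in cluster 3, at 0.283 CPM (0.0342 to 1.02) in control. Cluster 0 held 8 and 3 of them, and cluster 4 held 2 and 2. Over all cells the *Adrb1* ratio of LPS to control was 0.479 (0.152 to 1.31), an interval that includes 1. No cluster had enough UMIs of either gene for a ratio. Their start windows hold no match to the 5 motifs.

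*Adra1b* (ENSRNOG00000060087), the alpha-1B receptor, had the ratios farthest from 1 among the members, and on both sides of it in different clusters. In the fibroblasts of cluster 0 it had 473 control UMIs and 106 LPS UMIs, 5.23 CPM (4.77 to 5.72) and 1.44 CPM (1.18 to 1.74), a ratio of 0.275 (0.221 to 0.340). In cluster 1, also fibroblasts, it had 132 and 37 UMIs, 5.5 CPM (4.60 to 6.52) and 1.84 CPM (1.29 to 2.53), a ratio of 0.334 (0.226 to 0.485). The intervals of these ratios overlap. Unnamed cluster 2 had 77 and 32 UMIs, 8.22 CPM (6.49 to 10.3) and 3.81 CPM (2.61 to 5.38), a ratio of 0.463 (0.297 to 0.708). Endothelial cluster 4 had 29 and 5 UMIs, 2.61 CPM (1.75 to 3.74) and 0.514 CPM (0.167 to 1.20), a ratio of 0.197 (0.0596 to 0.515). After thinning, 6 and 3 of these UMIs were left, a log2 ratio of -1.14 in place of -2.34. In cluster 3, by contrast, it had 133 and 138 UMIs, 18.8 CPM (15.7 to 22.3) and 25.2 CPM (21.2 to 29.7), a ratio of 1.34 (1.05 to 1.71). The intervals of the first 4 clusters lie wholly below 1 and that of cluster 3 wholly above it. The difference between clusters was not tested.

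**Figure D2:**
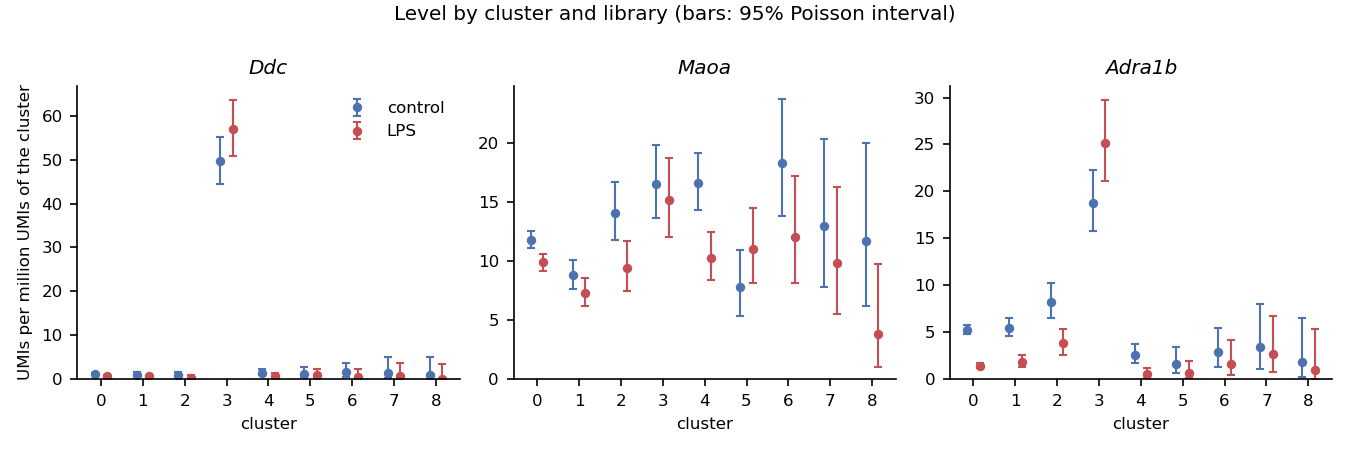
Levels of *Ddc*, *Maoa* and *Adra1b* in UMIs per 1000000 UMIs of the cluster (vertical axes, each with its own scale) in clusters 0 to 8 (horizontal axes), control in blue and LPS in red, with exact Poisson intervals as bars. Among the clusters drawn, *Ddc* is high in cluster 3 alone and *Maoa* is spread over all. *Adra1b* is highest in cluster 3 and lower in LPS in clusters 0, 1, 2 and 4. Clusters 9 and 10, with 16 to 66 cells per library, are not drawn.

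*Adra1b* was more concentrated in cluster 3 in the LPS library. Cluster 3 held 15.3% of its UMIs in control and 41.7% in LPS. Its level stood 3.70-fold (3.05 to 4.46) above that of the other cells in control and 15.9-fold (12.7 to 19.9) in LPS. In control the order was cluster 3, cluster 9 at 11.1 CPM from 5 UMIs, cluster 2, then clusters 1 and 0, and of neighbors in this order only clusters 2 and 1 differed beyond counting error, by 1.5-fold (1.11 to 2.00). In LPS cluster 3 stood 6.61-fold (4.47 to 10.0) above cluster 2, the next in order, and no neighbors below it differed.

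Thinned shares of cells went the same way as the levels. After thinning, 1.48% (1.21 to 1.81) of cluster 0 cells held an *Adra1b* UMI in control and 0.513% (0.359 to 0.709) in LPS, and without thinning 6.73% and 1.49%. In cluster 3 the thinned shares were 5.5% (4.06 to 7.27) and 7.02% (5.46 to 8.86), intervals that overlap. The unthinned shares there were 14.4% and 13.5%, an order opposite to that of the CPM, with the LPS cells read less deeply. As background, endothelial cluster 5, with medians of 10172 and 8998 UMIs, had thinned shares of 0.286% (0.00723 to 1.58) and 0.229% (0.00581 to 1.27), which overlap those of cluster 0. As levels, cluster 5 had 1.65 CPM (0.662 to 3.39) in control, below the interval of cluster 0, and 0.659 CPM (0.136 to 1.93) in LPS, an interval that overlaps that of cluster 0. As a percent of its cluster 3 level, *Adra1b* in cluster 0 was at 27.8% in control and 5.71% in LPS, above the 1.85% and 1.47% of the cardiomyocyte markers. In cluster 4 it was at 13.9% in control and 2.04% in LPS, where the markers were at 1.64%. The cluster 4 levels, 2.61 CPM (1.75 to 3.74) and 0.514 CPM (0.167 to 1.20), had intervals that overlap those of cluster 5 in both libraries.

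Read against all genes, the *Adra1b* ratios in clusters 0, 1 and 2 lay near the lower end. In cluster 0, 1 of the 3 members with at least 50 UMIs, *Adra1b*, was past 1.5-fold down, and so were 19.7% of all 12247 genes with as many UMIs. None of the 3 was past it up, with a background of 6.92%. Only 1.84% of those genes, 225 in number, had a ratio at or below that of *Adra1b*. In cluster 1 *Adra1b* was 1 of 2 members past 1.5-fold down, with a background of 13.3%, and 1.62% of genes had as low a ratio. In cluster 2 it was again 1 of 2, with a background of 13.6%, and 3.30% of genes had as low a ratio. Few genes of these clusters thus had a ratio as low. In cluster 4 *Maoa*, the only member with at least 50 UMIs, was past the fold with a background of 13.2%, and at a minimum of 20 UMIs *Ddc*, *Maoa* and *Adra1b* all were, with a background of 16.9%. The *Ddc* ratio there rests on 16 control and 6 LPS UMIs, 0.429 (0.137 to 1.15), an interval that includes 1. That of *Adra1b* rests on 29 and 5 UMIs. In macrophages *Maoa*, again the only member with 50 UMIs, was past the fold with a background of 30.8%. In cluster 3 none of 3 members was past the fold in either direction, with backgrounds of 4.38% up and 5.40% down, and 92.3% of the 8465 genes had a ratio at or below the 1.34 of *Adra1b*.

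**Figure D3:**
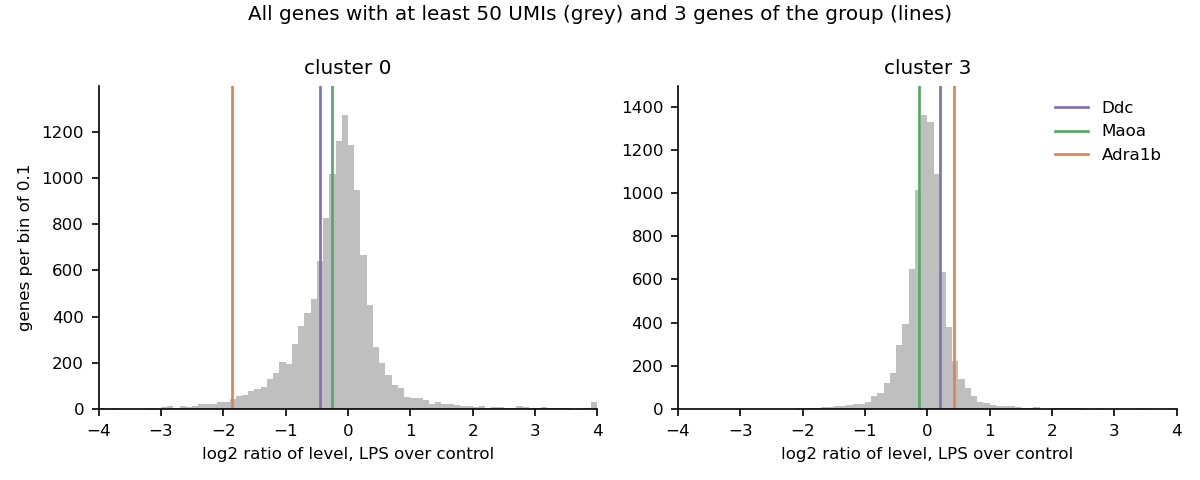
Histogram of the log2 ratio of level, LPS over control (horizontal axis), of all genes with at least 50 UMIs in cluster 0 (left) and cluster 3 (right), in genes per bin of 0.1 (vertical axis), with colored lines at *Ddc*, *Maoa* and *Adra1b*. The outermost bins also hold genes beyond the axis. *Adra1b* lies at -1.86 in the left tail of cluster 0 and at 0.42 on the right side of cluster 3, while *Maoa* and *Ddc* lie within the bulk of both.

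**Figure D4:**
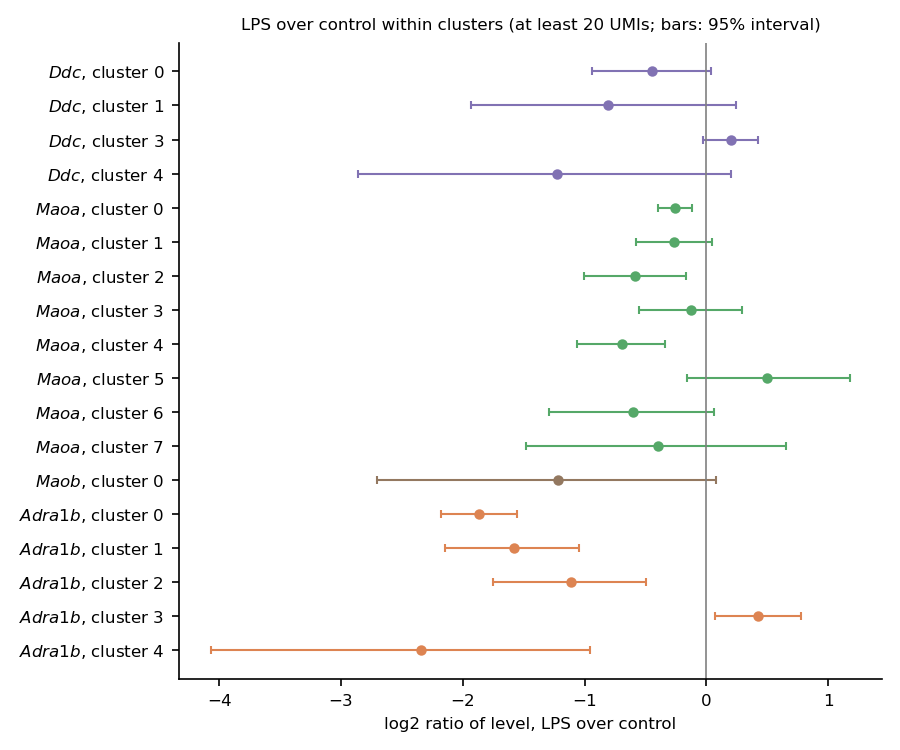
Log2 ratio of level, LPS over control (horizontal axis), for each member and cluster with at least 20 UMIs over both libraries (18 in all), with exact conditional intervals as bars. The bars of *Adra1b* in clusters 0, 1, 2 and 4 lie left of 0 and that of cluster 3 right of it, and of the *Maoa* bars those of clusters 0, 2 and 4 lie left of 0.

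The start window of *Adra1b* is shown because it is the member with the widest difference between conditions.
*Adra1b*, minus strand, chr10:28814298-28814597: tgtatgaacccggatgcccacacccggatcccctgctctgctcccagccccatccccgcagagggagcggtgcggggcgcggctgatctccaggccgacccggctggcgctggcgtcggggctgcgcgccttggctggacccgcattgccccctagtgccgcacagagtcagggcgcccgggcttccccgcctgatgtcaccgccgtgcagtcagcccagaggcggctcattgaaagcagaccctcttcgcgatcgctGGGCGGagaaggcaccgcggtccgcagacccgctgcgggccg
It holds 1 GC box match and none to the other 4 motifs, among them the kappa B core, which 4.09% of all windows hold. Its GC content of 72% was at or above that of 94.4% of the windows. That these letters are missing from this window says nothing of the factors that bind the gene.

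The genes most like *Adra1b* over clusters were *Nexn* (nexilin of the Z-disc, 0.930), *Gpc1* (a cell surface proteoglycan, 0.918), *Rrad* (a small GTPase acting on calcium channels, 0.909), *Tmem38a* (a cation channel of the sarcoplasmic reticulum, 0.906) and *Fxyd1* (phospholemman, 0.904). *Rrad* had 103 CPM in cluster 3 and 24.1 CPM in cluster 0 of the control library, and 108 and 12.9 CPM in LPS. After thinning, 9.26% (3.08 to 20.3) of LPS cells of cluster 3 with *Adra1d*, the alpha-1D receptor, also had *Adra1b*. Among those without *Adra1d* the share was 6.88% (5.29 to 8.77). In control the shares were 15.4% (5.86 to 30.5), from 6 of 39 cells, and 5.02% (3.61 to 6.77). The intervals overlap in each library, but overlap alone does not show equal shares. No interval of the ratio of these shares was taken.

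The rest of the pathway was read from a list of 33 genes in 6 groups that includes the members. In cluster 0, 18 of them had at least 20 UMIs, 1 past 1.5-fold up (*Gch1*) and 5 past it down (*Dbh*, *Maob*, *Adra1b*, *Adra1d*, *Arrb1*), against 7.13% and 22.8% of all 13447 genes with as many UMIs. The median ratio of the 18 was 0.737, and the interval of *Maob* (20 and 7 UMIs) included 1. In cluster 3, 15 had at least 20 UMIs, 1 past the fold up (*Gch1*) and 1 down (*Rnls*, 14 and 7 UMIs), against 5.84% and 8.74% of 9943 genes, with a median ratio of 1.08. The median over all genes with at least 50 UMIs was 0.914 in cluster 0 and 0.996 in cluster 3.

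Of the 8 synthesis genes, *Th* had 5 control and 4 LPS UMIs over all cells and *Pnmt* 1 and 2. *Dbh* followed *Ddc* in its place, with 180 and 136 UMIs in cluster 3, 25.4 CPM and 24.8 CPM, a ratio of 0.976 (0.775 to 1.23), and 0.552 CPM and 0.271 CPM in cluster 0, a ratio of 0.491 (0.277 to 0.839). In cluster 0 *Dbh* stood at 2.17% and 1.09% of its cluster 3 level, and the cardiomyocyte markers at 1.85% and 1.47% of theirs. What free RNA contributed to *Dbh* in cluster 0 was not tested. *Gch1*, GTP cyclohydrolase, which makes the cofactor of *Th* and of nitric oxide synthases, was past 1.5-fold up in each of clusters 0, 1, 2, 3, 4 and 6. It went from 0.939 CPM to 23.8 CPM in cluster 0, a ratio of 25.3 (20.4 to 31.9), from 1.98 CPM to 9.85 CPM in cluster 3, a ratio of 4.98 (2.73 to 9.71), and from 21.5 CPM to 166 CPM in macrophages. The cluster 3 levels of *Gch1* rest on 14 control and 54 LPS UMIs. Fibroblast markers stood in cluster 3 at 32.6% and 32.0% of their cluster 0 sums, and what fibroblast RNA contributed to *Gch1* there was not tested. The later enzymes of the same cofactor were lower in LPS in cluster 0, with ratios of 0.736 (0.677 to 0.80) for *Pts* and 0.735 (0.688 to 0.784) for *Spr*. Neither was past 1.5-fold. Over all 12247 genes with at least 50 UMIs there the median ratio was 0.914, and 25.9% were at or below 0.734, the ratio of *Ddc*. *Qdpr*, which recycles the cofactor, had a ratio of 0.972 (0.937 to 1.01).

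**Figure D5:**
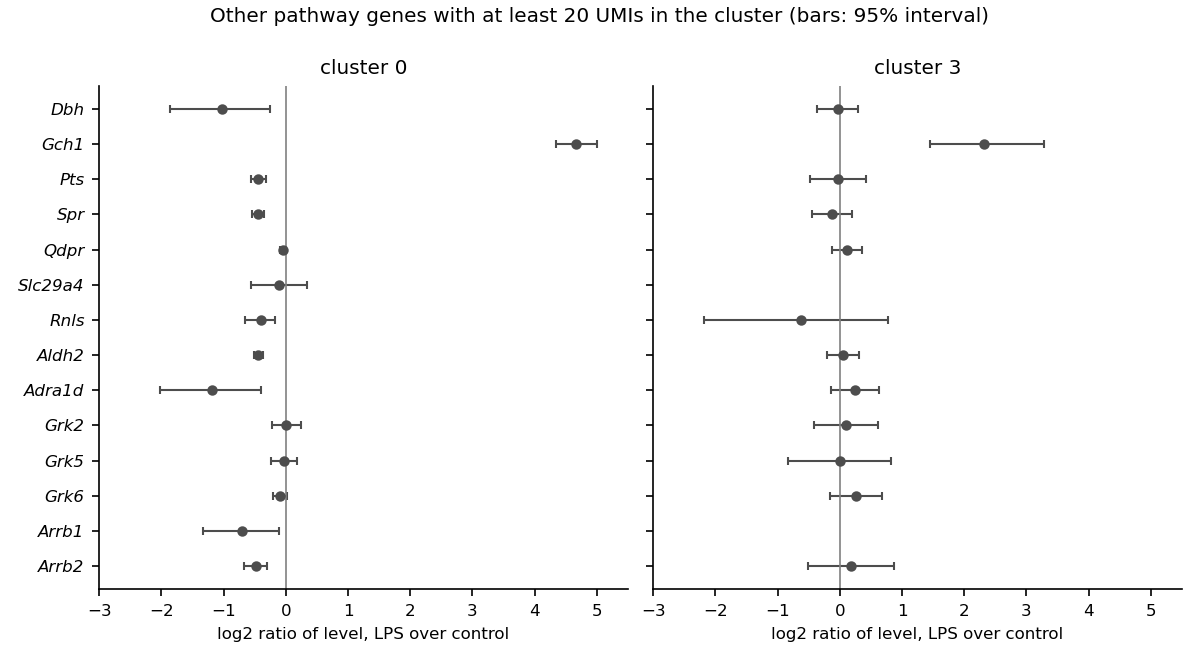
Log2 ratio of level, LPS over control (horizontal axes), of the pathway genes other than the members with at least 20 UMIs in cluster 0 (left) or cluster 3 (right), with exact conditional intervals as bars. *Gch1* lies far to the right in both clusters, and *Dbh*, *Adra1d* and *Arrb1* are left of 0 in cluster 0 but, where read, near 0 in cluster 3.

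Of the storage and uptake genes, only *Slc29a4*, a plasma membrane monoamine transporter, reached 20 UMIs in cluster 0, with a ratio of 0.927 (0.676 to 1.27). *Slc6a2* had 7 and 9 of its 13 and 10 UMIs in cluster 3, *Slc18a1* and *Slc18a2*, the vesicular monoamine transporters, had 10 and 23 control UMIs in all, and *Slc6a3* and *Slc22a2* had 0 in both libraries. Among the breakdown genes, *Aldh2*, which oxidizes the aldehydes that monoamine oxidases release, had ratios of 0.737 (0.699 to 0.777) in cluster 0, 0.667 (0.519 to 0.853) in cluster 4 and 1.04 (0.862 to 1.24) in cluster 3. *Rnls*, renalase, had 0.755 (0.638 to 0.892) in cluster 0 and 0.393 (0.228 to 0.655) in cluster 4.

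Of the 8 receptors, *Adra1b* and *Adra1d* reached 20 UMIs in clusters 0 and 3. *Adra1d* was at 17.0 CPM and 20.1 CPM in cluster 3, a ratio of 1.18 (0.906 to 1.55), and at 0.586 CPM and 0.258 CPM in cluster 0, a ratio of 0.440 (0.246 to 0.755). Its cluster 0 levels were 3.45% and 1.28% of those in cluster 3, where the cardiomyocyte markers were at 1.85% and 1.47%. The part of free RNA in them was not tested. *Adra1a* had 5 and 1 UMIs in all, *Adrb3* 1 and 0, *Adra2a* 14 and 18, *Adra2b* 32 and 11, and *Adra2c* 0 in both. Of the kinases and arrestins that switch these receptors off, *Grk5* was higher in LPS in both endothelial clusters. In cluster 4 it had 25.2 CPM and 45.1 CPM, a ratio of 1.79 (1.54 to 2.09). In cluster 5 it had 10.6 CPM and 22.2 CPM, a ratio of 2.10 (1.46 to 3.05). Among all genes with at least 50 UMIs, 5.64% in cluster 4 and 9.62% in cluster 5 were past 1.5-fold up. *Grk6* went the other way, with ratios of 0.733 (0.619 to 0.866) in cluster 4 and 0.757 (0.615 to 0.930) in cluster 5. The other genes of this group with a ratio in these clusters had intervals that include 1. *Arrb2* was lower in macrophages, 41.7 CPM and 11.3 CPM, a ratio of 0.270 (0.173 to 0.408). *Arrb2* was not alone in this. In macrophages 9 of the 11 pathway genes with at least 20 UMIs were past 1.5-fold down and 1 up. Among the 9, the intervals of *Pts*, *Rnls*, *Grk2* and *Maoa* included 1. Of all genes with at least 50 UMIs there, 30.8% were past it down and 8.8% up. No such share was taken there at the minimum of 20 UMIs, so the count and the shares are not at a like minimum. In cluster 3 the 4 measured kinases and arrestins had intervals that include 1.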

How the data were processed

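The deposited values are raw UMI counts per gene and cell, made by the authors from 10X Genomics 3′ libraries and not normalized, with a cluster number and a type for each cell from their joint clustering. The submitters' processing notes name Cell Ranger 2.2.0 and Seurat 2.3.4; the genome build and annotation are not given in the sources used here. The control library held 152624585 UMIs in 11531 cells and the LPS library 127580475 in 12689, which limits low genes to the counting intervals shown.

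Cells without a cluster (2 control, 8 LPS) were left out. UMIs were summed per cluster and library in Python 3.11.15 (numpy 2.4.6, scipy 1.17.1, pandas 2.3.3) and divided by the UMIs of the class. Intervals at 95% were exact Poisson (levels), exact conditional (ratios) and Clopper-Pearson (shares), and 3 UMIs served as the limit where none was counted. Ratios were given from 20 UMIs over both libraries, and shares of genes past 1.5-fold from 50 UMIs. For shares of cells, each cell was thinned to 3000 UMIs without replacement (seed 1), which left out 0 control and 79 LPS cells. Doublets were not called, and an alternative left out the 8% of cells with the most UMIs. The interval procedure was tested on simulated Poisson counts, which hold no spread between cells or libraries. Other alternatives were filters on cells (at least 500 genes, at most 20% mitochondrial UMIs), the mean of the cells' own CPM, totals without mitochondrial UMIs, scaling by the median gene ratio, thinning, a fold of 2 and other UMI minimums.

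The members, the pathway list and the marker lists were chosen with earlier results of these data known. A few genes of these lists are not reported here. Named were the 6 members, the other genes of the pathway list, the 5 genes most like each member with at least 50 UMIs in each library, and marker genes of the cell types. Start windows came from RefSeq (GRCr8), matched by symbol for 6 of 6 members.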

Additional observations from a re-analysis of the deposited data

Results flagged for a closer look

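*Adra1b* stood out because its level moved in opposite directions in different clusters under the same contrast. Its ratio of LPS to control was 1.34 (1.05 to 1.71) in cluster 3, short of 1.5-fold. Against this it was 0.275 in cluster 0, 0.334 in cluster 1, 0.463 in cluster 2 and 0.197 in cluster 4. The counting interval excluded 1 in each of these clusters. The difference between the clusters was not tested, since there was 1 library per condition. Depth was lower in LPS in both clusters, from a median of 7526 to 5269 UMIs per cell in cluster 3 and from 12968 to 9822 in cluster 0. The fibroblast marker sum of cluster 3 was lower after LPS as well (control 3913 CPM, LPS 3498 CPM). That of cluster 0 was also lower (control 11999 CPM, LPS 10930 CPM). As a share of the cluster 0 sum, cluster 3 thus changed little, with 32.6% for control and 32.0% for LPS. With each cell thinned to 3000 UMIs, the *Adra1b* log2 ratio in cluster 0 was -1.56 in place of -1.86. In cluster 3 it lay between 0.405 and 0.494 over all alternatives, thinning among them. Beyond these values, what depth contributed to the *Adra1b* result was not tested. What fibroblast RNA contributed to it was not tested either.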

How the results depend on the processing

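Of 183 recomputed values for 44 results, 152 moved by less than counting error, 31 moved by more and 0 of the ratios whose interval excluded 1 changed sign. All 30 alternatives to the ratios of LPS to control of *Ddc* in cluster 3, *Maoa* in clusters 0 and 3 and *Adra1b* in clusters 0 and 3 stayed within it, and so did 76 of the 77 others. The exception was *Maoa* in cluster 5 after thinning, a log2 ratio of 1.53 from 5 and 18 UMIs. The filter on genes and mitochondrial UMIs left the counts of *Maoa* and *Adra1b* in cluster 0 unchanged, so it could not move their ratios there. Within counting error, thinning turned the log2 ratio of *Maoa* in cluster 7 from -0.40 to 0.12 (4 and 6 UMIs) and took that of *Adra1b* in cluster 4 from -2.34 to -1.14 (6 and 3 UMIs). Leaving out the 8% of cells with the most UMIs took *Adra1b* in cluster 4 to -1.85 and *Ddc* in cluster 4 from -1.22 to -0.44 (6 and 4 UMIs). Thinning to 3000 UMIs moved the log2 ratio of cluster 3 to the other cells to 5.79 (control) and 6.82 (LPS) for *Ddc* and to 3.66 (LPS) for *Adra1b*. Shares of cells follow the depth by construction. Thinned to 1500 UMIs, the control and LPS shares were 7.30% and 8.72% for *Ddc*, 2.99% and 3.66% for *Adra1b* and 2.03% and 2.15% for *Maoa* in cluster 3, and 0.667% and 0.256% for *Adra1b* and 1.56% and 1.55% for *Maoa* in cluster 0. Without thinning they were 30.9% and 25.8%, 14.4% and 13.5%, 11.7% and 7.86%, 6.73% and 1.49%, and 14.7% and 9.59%, in the same order. At a fold of 2 the background shares were 3.44% up and 9.10% down in cluster 0 and 1.70% and 1.69% in cluster 3, and at 20 UMIs the share down in cluster 3 was 8.74%. At a fold of 2 no pathway gene (0) was down in cluster 3, and with at least 50 UMIs 0 were down in cluster 3.

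No paired analysis was possible because a single library stood for each condition. The same lack of replicates means that no interval here covers differences between animals, cultures or library preparations, and *Slc22a3* and *Adrb1* were too sparse at this depth for any comparison within a cluster.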
